A study of Rattus norvegicus with 192 samples.

Results

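The comparison set 36 nucleus accumbens libraries with high Col1a2 RNA against 36 with low Col1a2 RNA, 72 of the 192 libraries that the series lists. Col1a2, on chromosome 4, encodes a chain of type I collagen. A table of 159 libraries was deposited, and 147 of them had at least 100 CPM of Drd1, the D1 dopamine receptor of striatal output neurons, CPM being expected counts scaled to 1000000 per library. These 147 were ranked by their Col1a2 level, and the 36 at the top and the 36 at the bottom form the high and the low group. A further 38 libraries form the upper middle group and 37 the lower middle group. The libraries were chosen by Col1a2, so its level is a description and supports nothing below.

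The study sequenced polyA RNA of the accumbens core from outbred heterogeneous stock rats, 1 library a rat, for genetic work in which other brain areas were sampled too. No label gives a treatment, sex, age, dissection record or sequencing batch, so whether the groups differ in treatment, age, dissection or batch is not known. Sex can be read only from the RNA of Xist, which is made in females. By it the groups differed, with 14 of 36 high and 25 of 36 low libraries above 10 CPM. What the labels do give is the format of the rat identifier. The high group held 19 libraries with an all-digit identifier (numeric label), 13 with one that starts with E21, 3 corrected to the E21 format and 1 corrected to another format. The low group held 12 numeric, 22 E21 and 2 corrected E21 libraries.

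The leptomeninges, the pia and arachnoid that cover the brain and follow its larger vessels inward, are built by fibroblasts. These cells secrete fibrillar collagens, small leucine-rich proteoglycans that bind collagen fibrils, and the basement membrane on which astrocyte endfeet rest. They also make retinoic acid and insulin-like growth factor 2, carry organic anion and amino acid transporters, and express the forkhead factor Foxc1. The accumbens core is deep tissue, where vessels bring such cells in and where a pial surface is not part of the named structure.

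Col1a2 lay between 8.70 and 44.0 CPM in the high group, with a median of 11.0, and between 3.06 and 5.08 CPM in the low group, with a median of 4.46. The highest library of the upper middle group had 8.37 CPM and the lowest of the lower middle group 5.09 CPM, so both borders cut through a continuous range. In expected counts Col1a2 had a lowest, median and highest value of 162, 282 and 1479 in the high group, against 48, 94 and 278 in the low group. The spread of the high group was wide, and its 10 highest libraries, from 18.6 to 44.0 CPM, held 5 numeric and 5 E21 labels.

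The 250 bases before the annotated start of 3 genes are printed because they stand at the centre of the comparison, the ranking gene Col1a2 and the genes with the 2 largest rises, Ogn and Igfbp2. They are from RefSeq on GRCr8, at chr4:33518307-33518556 on the plus strand for Col1a2, chr17:15258996-15259245 on the minus strand for Ogn and chr9:81864561-81864810 on the plus strand for Igfbp2. Capitals mark the letters CCAAT and TATAAA, each searched on both strands.
Col1a2: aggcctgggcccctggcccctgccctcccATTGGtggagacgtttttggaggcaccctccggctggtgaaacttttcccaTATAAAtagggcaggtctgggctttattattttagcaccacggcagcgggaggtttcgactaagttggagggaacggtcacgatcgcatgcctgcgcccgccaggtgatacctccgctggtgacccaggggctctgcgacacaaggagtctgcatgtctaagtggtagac
Ogn: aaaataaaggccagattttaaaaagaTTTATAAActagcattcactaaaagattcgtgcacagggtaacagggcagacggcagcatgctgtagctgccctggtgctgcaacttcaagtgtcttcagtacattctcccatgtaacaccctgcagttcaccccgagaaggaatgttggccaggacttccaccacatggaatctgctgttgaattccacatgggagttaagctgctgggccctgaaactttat
Igfbp2: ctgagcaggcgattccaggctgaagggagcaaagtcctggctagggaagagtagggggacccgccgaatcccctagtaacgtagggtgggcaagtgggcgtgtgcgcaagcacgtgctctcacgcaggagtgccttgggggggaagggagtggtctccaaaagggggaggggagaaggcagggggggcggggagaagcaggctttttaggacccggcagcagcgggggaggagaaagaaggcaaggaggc
The Col1a2 stretch holds CCAAT on the opposite strand, beginning 221 bases before the start, and TATAAA 170 bases before it. In Ogn the capitals are overlapping matches to TATAAA, 1 on each strand, and neither set of letters occurs in the Igfbp2 stretch. Of the 82 genes that were higher by at least 0.5 on the log2 scale, 56 had a promoter entry. CCAAT occurred in 37.5% of those 56 and in 34.5% of 12543 tested genes with an entry, and TATAAA in 7.14% and 6.91%. Over all 27457 windows of the promoter table the shares were 34.3% for CCAAT and 13.1% for TATAAA. Such matches describe the letters and nothing else.

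Genes of meningeal fibroblasts were higher in the high group throughout their list. Of 15326 genes tested besides Col1a2, limma called 580, or 3.78%, at an adjusted p of 0.05, with 17.4% at an unadjusted p under 0.05. Of the calls 508 were higher and 72 lower in the high group, 3.31% and 0.47% of the genes. With median-of-ratios scaling the split was 402 higher and 157 lower, and with quantile normalization 319 and 148, so the higher share of the calls was 87.6%, 71.9% and 68.3%. Over all 147 libraries with Col1a2 as a continuous measure it was 57.8%, with 1622 higher and 1186 lower. All 15 meningeal fibroblast genes listed besides Col1a2 were among the 508, with a median log2 change of 0.67, set against 0.00 over all genes tested. Their summed level lay between 64.1 and 253 CPM in the high group, with a median of 84.6, and between 34.3 and 63.5 CPM in the low group, with a median of 45.7. The sums of the groups did not overlap. The list was chosen with earlier results of these data known, so these values are a description and no independent support. In RNA of whole tissue, more cells of a type and more RNA per cell cannot be told apart.

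Each log2 change is the mean log2(CPM + 1) of the high group minus that of the low group, which understates the change of genes at low levels. It is given with its standard error (SE), on 36 libraries a group, and a fall is negative. Levels are not scaled by transcript length, so they are compared between groups and not between genes.

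Ogn, which encodes the proteoglycan osteoglycin, had the largest rise. Its lowest, median and highest levels were 3.61, 6.28 and 32.5 CPM in the high group and 1.40, 2.59 and 3.56 CPM in the low group. Every high library lay above every low one, though narrowly, at 3.61 against 3.56 CPM. The share of genes with such full separation was not counted. By the weaker criterion of 10 or more high libraries above every low one, it was 0.927% of all genes. The log2 change of Ogn was 1.34 (SE 0.13, limma adjusted p = 8.38e-13). Col1a1, the partner chain of Col1a2 in type I collagen, had 6.13, 11.0 and 31.3 CPM in the high group against 2.45, 4.95 and 7.53 CPM in the low group. The groups overlapped in few libraries, with 34 of 36 high libraries above the highest low one, at a log2 change of 1.14 (SE 0.105, limma adjusted p = 4.01e-13). Col3a1, the type III collagen that forms fibrils with type I, had 3.03, 8.63 and 20.1 CPM in the high group and 1.77, 3.64 and 6.71 CPM in the low group. It rose by 1.02 (SE 0.11, limma adjusted p = 1.92e-10), and 25 high libraries lay above the whole low group.

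Igf2, an imprinted growth factor made in adult brain by leptomeninges and choroid plexus, had 15.2, 23.6 and 73.5 CPM in the high group, against 7.74, 11.8 and 20.9 CPM in the low group. Here 24 of 36 high libraries stood above every low library, and the change was 1.15 (SE 0.13, limma adjusted p = 1.88e-10). Igfbp2, a secreted protein that binds insulin-like growth factors, had 3.57, 8.82 and 40.5 CPM in the high group against 1.42, 3.59 and 9.93 CPM in the low group. Its groups overlapped more, with 15 high libraries above the low group, at a log2 change of 1.33 (SE 0.16, limma adjusted p = 2.15e-09). Aldh1a2, the enzyme that makes retinoic acid from retinaldehyde, had 1.34, 3.22 and 13.6 CPM in the high group and 0.457, 1.19 and 2.14 CPM in the low group. It rose by 1.10 (SE 0.12, limma adjusted p = 3.08e-10), and 28 high libraries exceeded the low group.

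Lum, which encodes the proteoglycan lumican and is one of the marker genes of these cells, changed less. Its levels were 0.599, 1.70 and 3.59 CPM in the high group and 0.186, 1.02 and 1.91 CPM in the low group, which rest on median expected counts of 41.5 and 21. The groups overlapped, with 12 high libraries above the low group, at a log2 change of 0.46 (SE 0.08, limma adjusted p = 2.72e-05). The remaining fibroblast genes rose by 0.24 (Crabp2, a carrier of retinoic acid) to 0.79 (Ranbp3l). Between them lay Islr at 0.67, Dcn (decorin) at 0.59, Foxc1 at 0.49, the mural and meningeal T-box factor Tbx18 at 0.49, the GABA transporter Slc6a13 at 0.39 and the laminin chain Lama1 at 0.29.

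**Figure D1:**
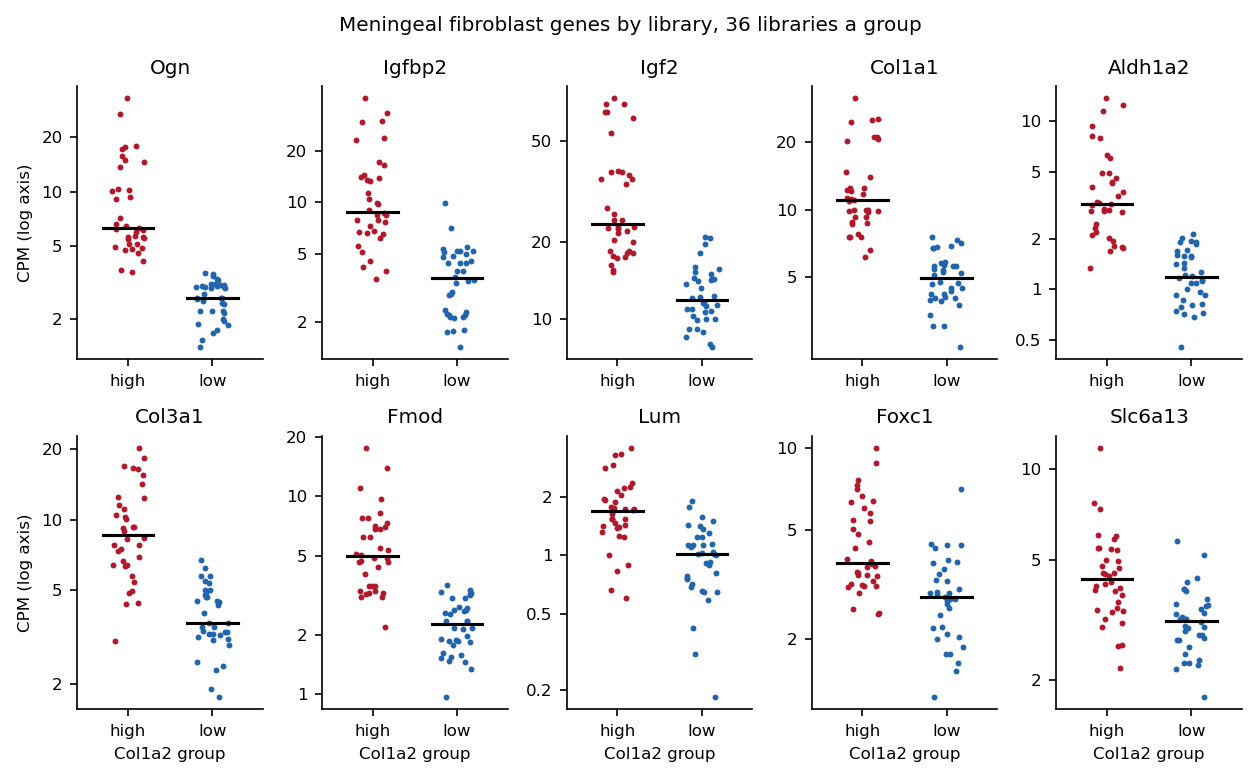
Levels of 10 fibroblast and matrix genes in each library (CPM, log axis), with 1 point a library and a black bar at the median of the group. In Ogn the groups do not overlap, at medians of 6.28 CPM in the high group and 2.59 CPM in the low group, while in Lum, Foxc1 and Slc6a13 they overlap, with 12, 5 and 6 high libraries above every low one.

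The matrix genes around type I collagen rose in part. Of 10 listed fibrillar collagen genes other than Col1a2, 8 reached the mean of 1 CPM needed for a test, and 3 of them were called higher, Col1a1, Col3a1 and Col5a1, a chain of the type V collagen that starts fibrils. Col5a1 rose by 0.48 (SE 0.09, limma adjusted p = 0.000635), with levels of 1.59, 3.32 and 7.56 CPM in the high group against 0.505, 2.18 and 4.83 CPM in the low group. The 5 others lay at -0.04 to 0.19 and were not called. Since the minimum is a mean over all 147 libraries, a gene can reach it through its level in the high group, so these counts are descriptions of the genes tested. Of the genes named here, Col8a2, Cpxm2 and Col6a3 did so, with means of 0.629, 0.823 and 0.9898 CPM over the 111 libraries outside the high group, and their values are given as descriptions with no test. The 15 fibroblast genes averaged 1.04 CPM or more in those 111 libraries.

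Of 17 other collagen genes tested, 5 were called higher, a count that includes Col8a2 and Col6a3, which stand as descriptions only. Col8a2, a network-forming collagen of vessel and corneal membranes, differed by 0.93 (SE 0.12), at 0.164, 1.54 and 7.74 CPM in the high group and 0.0928, 0.472 and 0.896 CPM in the low group. Col12a1, which decorates the surface of fibrils, rose by 0.69, and the type VI microfibril chains Col6a1 and Col6a2 by 0.51 and 0.46, with Col6a3 at 0.44. In the basement membrane list 11 of 22 tested genes rose, but 1 was called with the cortical score described below as a term, 1 without the 10 libraries of highest Col1a2 and 0 in E21 libraries alone. Among the 11 were the laminin chain Lamc3 at 0.32, Col4a5 at 0.29, perlecan (Hspg2) at 0.29 and Nid2 at 0.29.

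Small leucine-rich proteoglycans, which attach to collagen fibrils and set their width, were called higher in 6 of 10 tested genes. Besides Ogn, Dcn and Lum these were Fmod (fibromodulin), Bgn (biglycan) and Ecm2. Fmod had 2.19, 4.97 and 17.4 CPM in the high group and 0.971, 2.25 and 3.54 CPM in the low group. It rose by 0.98 (SE 0.10, limma adjusted p = 1.2e-10), with 25 high libraries above the low group. Bgn rose by 0.54 and Ecm2 by 0.23, and the 4 genes not called ranged from -0.21 to 0.36.

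Enzymes that process collagen moved little as a group. Of 23 tested genes of collagen assembly 4 rose, namely Adamts2, which removes the amino propeptide, by 0.61, the propeptidase enhancer Pcolce by 0.50, the glycosyltransferase Colgalt2 by 0.23 and the collagen chaperone Serpinh1 by 0.22, and the rest ranged from -0.13 to 0.27. Among microfibril and glycoprotein genes 13 of 24 rose, with Mfap4 at 0.62, Mgp at 0.49, fibronectin (Fn1) at 0.40 and vitronectin (Vtn) at 0.39. With the cortical score described below as a term 4 of that list were called, and in E21 libraries alone 2. Of 18 tested proteases and inhibitors 4 rose, Serpinf1 by 0.93, the inhibitors Timp3 and Reck by 0.23 and 0.21 and gelatinase A (Mmp2) by 0.19. Serpinf1, which encodes pigment epithelium-derived factor, had 1.03, 2.11 and 7.56 CPM in the high group and 0.291, 0.927 and 2.55 CPM in the low group.

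Cpxm2 and Aebp1, on no list, were among the 15 largest rises. Cpxm2, a secreted carboxypeptidase-like protein, had 0.507, 2.14 and 10.1 CPM in the high group against 0.117, 0.536 and 1.97 CPM in the low group, at a log2 change of 1.14 (SE 0.13). Aebp1, a collagen-binding protein, rose by 0.87. The next 3 genes were picked with their values in view and stand for no group. The collagen receptor Ddr2 rose by 0.70 and vimentin (Vim), the intermediate filament of mesenchymal cells and astrocytes, by 0.68. Ptgds, the prostaglandin D synthase of leptomeninges and oligodendrocytes, rose by 0.61 (SE 0.12, limma adjusted p = 0.00028), at 146, 251 and 703 CPM in the high group against 121, 204 and 323 CPM in the low group.

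Among signals and transporters of the meninges a minority of each list was called. In the retinoid list 3 of 11 tested genes rose, Aldh1a2, Crabp2 and Cyp26b1, the last an enzyme that degrades retinoic acid, by 0.64 (SE 0.12, limma adjusted p = 0.000359). Within the IGF axis 4 of 16 rose, Igf2, Igfbp2, Igfbp6 by 0.39 and Igf1 by 0.30. Secreted BMP and Wnt factors were called in 9 of 26, among them the Wnt inhibitor Sfrp1 at 0.67, Bmp7 at 0.52, the BMP antagonist Grem1 at 0.51 and Wnt4 at 0.44. Of these 4, Bmp7 alone was still called with the cortical score described below as a term, at 0.47 (limma adjusted p = 5.66e-05), the others falling short at 0.15 to 0.47.

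Of 18 listed meningeal transporters, 13 were tested and 6 rose. The sulfate transporter Slc13a4 had 3.90, 6.70 and 28.9 CPM in the high group and 2.78, 4.40 and 7.85 CPM in the low group, a log2 change of 0.64 (SE 0.10, limma adjusted p = 1.24e-05). Slc6a13 rose by 0.39, the organic anion transporter Slc22a8 by 0.36, the dicarboxylate transporter Slc13a3 by 0.34, the potassium channel subunit Abcc9 by 0.26 and the cystine transporter Slc7a11 by 0.25. The 7 others, not called, lay at 0.00 to 0.27. With the cortical score described below as a term 3 transporters were called. With 3 scores and the label format as terms, a model described below that used only libraries with an original label, none was. The septal score in that model shares genes with the meningeal transcription factors, so it can take up part of the meningeal signal. Slc6a20a, a proline transporter that was not listed under that symbol, rose by 0.61 (SE 0.12, limma adjusted p = 0.000421).

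Among transcription factors of meningeal cells 6 of 11 tested genes rose, including Nr2f2 by 0.52, Zic1 by 0.51, Foxc1, Tbx18 and Zic4 by 0.33, of 25 listed. Zic1 and Zic4 are also on the list of septal and diencephalic markers, of which 3 of 13 were called. Zic1 had 10.9, 17.4 and 37.9 CPM in the high group and 4.78, 12.1 and 19.6 CPM in the low group, and Zic2, named after its values were seen, rose by 0.58.

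**Figure D2:**
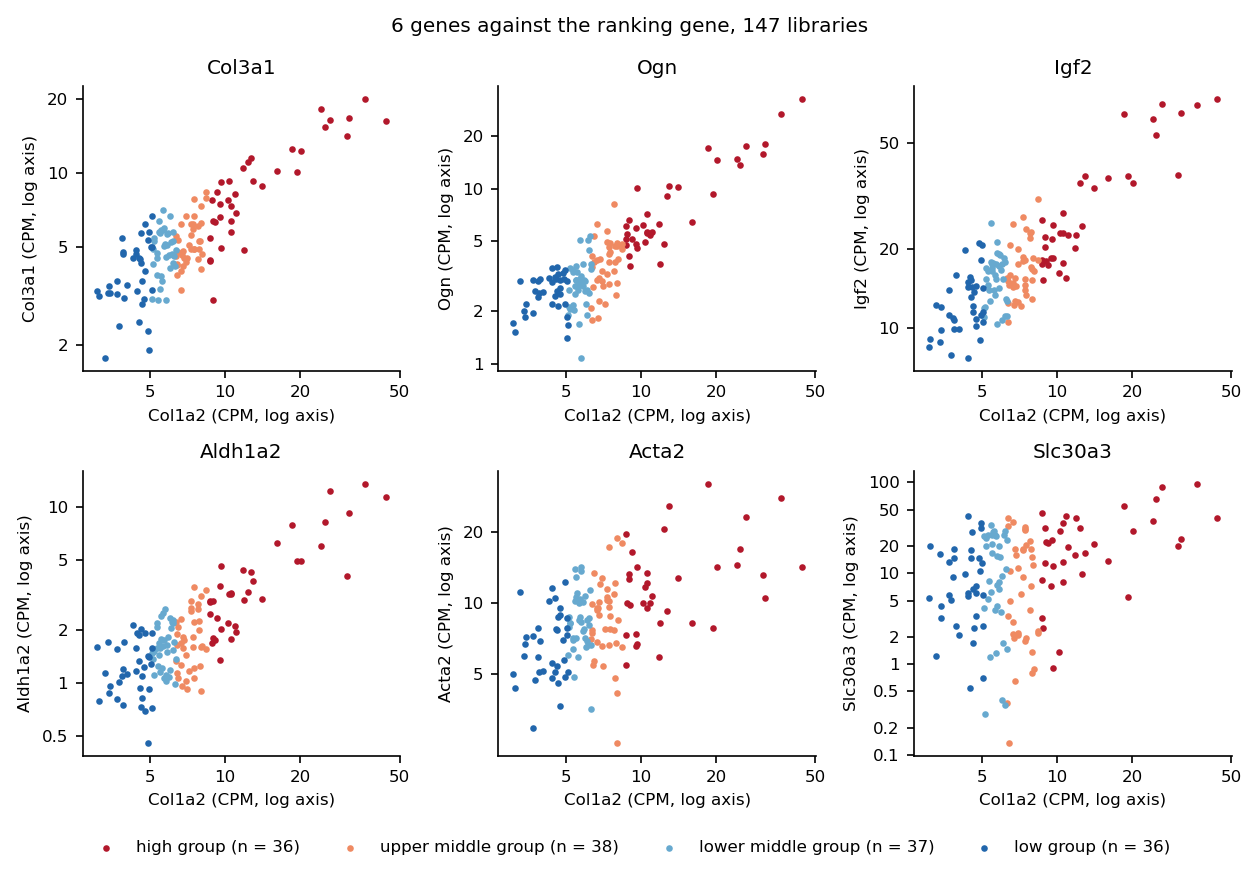
Levels of 6 genes against Col1a2 in 147 libraries (CPM, both axes logarithmic), with 1 point a library coloured by group. Col3a1, Ogn, Igf2 and Aldh1a2 climb along the high group up to 20.1, 32.5, 73.5 and 13.6 CPM, while Slc30a3 spans 0.905 to 96.3 CPM within the high group and 0.545 to 43.0 CPM within the low group.

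Within the high group the fibroblast genes also varied together. Over its 36 libraries, 8 pairs of genes were correlated on the log2 scale, with permutation p-values adjusted over the 8. Col3a1 and Igf2 had a Pearson r of 0.803 and a Spearman rho of 0.736 (permutation adjusted p = 2e-05 and 2.7e-05), and r was 0.805 without the 2 libraries farthest from the median of Col3a1. Igf2 and Ogn had an r of 0.840 and a rho of 0.644 (permutation adjusted p = 2e-05 and 0.0001), Col3a1 and Ogn 0.750 and 0.666, and Col3a1 and Aldh1a2 0.730 and 0.716 (permutation adjusted p = 2e-05 and 2.7e-05 for both pairs). Without the 2 farthest libraries these r were 0.801, 0.759 and 0.726. For smooth muscle actin r was lower, a difference that was not tested. Col3a1 and Acta2 had an r of 0.446 and a rho of 0.465 (permutation adjusted p = 0.01 and 0.0072), with an r of 0.432 without the 2.

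For 3 genes of other sources the relation with Col3a1 did not pass. It was 0.335 and 0.339 with Slc30a3 (permutation adjusted p = 0.061 and 0.058), 0.276 and 0.270 with Cd74 (0.12 and 0.11) and 0.247 and 0.299 with the globin gene Hba-a2 (0.15 and 0.086). Without the 2 farthest libraries r was 0.335, 0.296 and 0.360. All values of a pair come from the same libraries and share their depth, and the smallest p that these permutations can give is 1e-05.

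Vessel genes rose along with the fibroblast genes. Of 15 tested mural and smooth muscle genes 10 were higher, and their list had a summed level of 155 to 346 CPM in the high group, with a median of 235, against 127 to 217 CPM in the low group, with a median of 182. Acta2, smooth muscle actin, had 5.47, 12.0 and 32.0 CPM in the high group and 2.96, 6.83 and 12.2 CPM in the low group. It rose by 0.77 (SE 0.12, limma adjusted p = 2.34e-06), with 17 high libraries above the low group. Smooth muscle myosin Myh11 rose by 0.66, Tagln by 0.56 and Myl9, with 24 high libraries above the low group, by 0.54. Of the mural and smooth muscle list, 10 genes were called in numeric libraries alone and 2 in E21 libraries alone. With the cortical score described below as a term 8 were called, and 6 without the 10 libraries of highest Col1a2. The part of vessel cells in the rise of the matrix genes was not tested.

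Endothelial genes rose in 5 of 14 cases, with Cdh5 (VE-cadherin) at 0.32, Tie1 at 0.26, Vwf at 0.25 and Tek at 0.23. The list summed to 490 to 913 CPM in the high group and 320 to 789 CPM in the low group. Numeric libraries alone gave 5 calls in this list and E21 libraries alone none. There were 2 with the cortical score as a term and 1 without the 10 libraries of highest Col1a2. In the arachnoid barrier list 2 of 7 tested genes rose, Cdh5 and the gap junction gene Gjb2 by 0.50, while Cdh1 and Krt19, markers of its epithelial-like cells, averaged 0.288 and 0.0731 CPM over the 147 libraries. Of 12 listed border macrophage genes only 4 reached the minimum, and Mrc1 rose by 0.38 and Stab1 by 0.28. That list summed to 11.5 to 26.0 CPM in the high group and 7.75 to 19.5 CPM in the low group. None of 12 microglial genes was called, and they ranged from 0.01 to 0.14.

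Immune and plasma protein genes rose in part. Of 10 tested complement and acute response genes 6 were higher, led by Serping1, the inhibitor of the C1 complex. Serping1 had 1.89, 4.18 and 9.01 CPM in the high group and 0.987, 1.91 and 4.12 CPM in the low group, a change of 0.81 (SE 0.10, limma adjusted p = 3.17e-09). C1r rose by 0.47, C1s by 0.37 and ceruloplasmin (Cp) by 0.34. With the cortical score described below as a term 2 of that list were called, and in E21 libraries alone 1. Of the genes of antigen presentation by MHC class II, 3 were picked with their values in view, and no list of them was tested. Cd74 rose by 0.68 (limma adjusted p = 0.0106), RT1-Da by 0.67 and RT1-Ba by 0.67. Cd74 was not called with the cortical score as a term (0.63, limma adjusted p = 0.0919), in numeric libraries alone (0.87, limma adjusted p = 0.0568) or in E21 libraries alone (0.60, limma adjusted p = 0.625). RT1 genes have near-identical copies and vary between rat strains, so their levels are uncertain. None of 12 interferon response genes was called.

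Blood genes mostly moved in the same direction, 7 of 9 tested being positive. Of 9 tested genes of the red blood cell list 3 were called, the alpha-globins Hba-a1 by 0.58 and Hba-a2 by 0.53 and the beta-globin Hbb-b1 by 0.48, at limma adjusted p = 0.023, 0.0498 and 0.0174. Hbb had 15.7, 80.0 and 416 CPM in the high group and 14.9, 45.9 and 143 CPM in the low group and was not called (0.64, SE 0.20, limma adjusted p = 0.0541). In numeric libraries alone and in E21 libraries alone none of the list was called. The same held with the cortical score described below as a term and without the 10 libraries of highest Col1a2. Globin copies share reads, so their split is uncertain. The list summed to 484 to 1643 CPM in the high group, with a median of 711, and to 471 to 966 CPM in the low group, with a median of 621. Its part in the result was not tested.

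Genes of the epithelia of the ventricles were not called. None of 4 tested choroid plexus genes and none of 8 ependymal genes was called, with ranges of -0.15 to 0.17 and -0.15 to 0.07. Ttr, the transthyretin gene that defines choroid plexus, averaged 0.312 CPM over the 147 libraries. None of 12 astrocyte, 12 oligodendrocyte, 10 precursor and 14 housekeeping genes was called either, and their medians were 0.09, 0.00, 0.08 and -0.00. In numeric libraries alone, however, 5 of the 12 astrocyte genes were called higher, at a list median of 0.26. In E21 libraries alone none of them was, at a median of -0.04. The test of the difference between the formats, given below, called no gene. Of the remaining lists, 2 of 16 immediate early genes and 2 of 9 genes of the olfactory tubercle and islands of Calleja rose, at list medians of 0.05 and -0.05. The lists of this and the earlier paragraphs are set side by side in the plot of list medians.

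**Figure D3:**
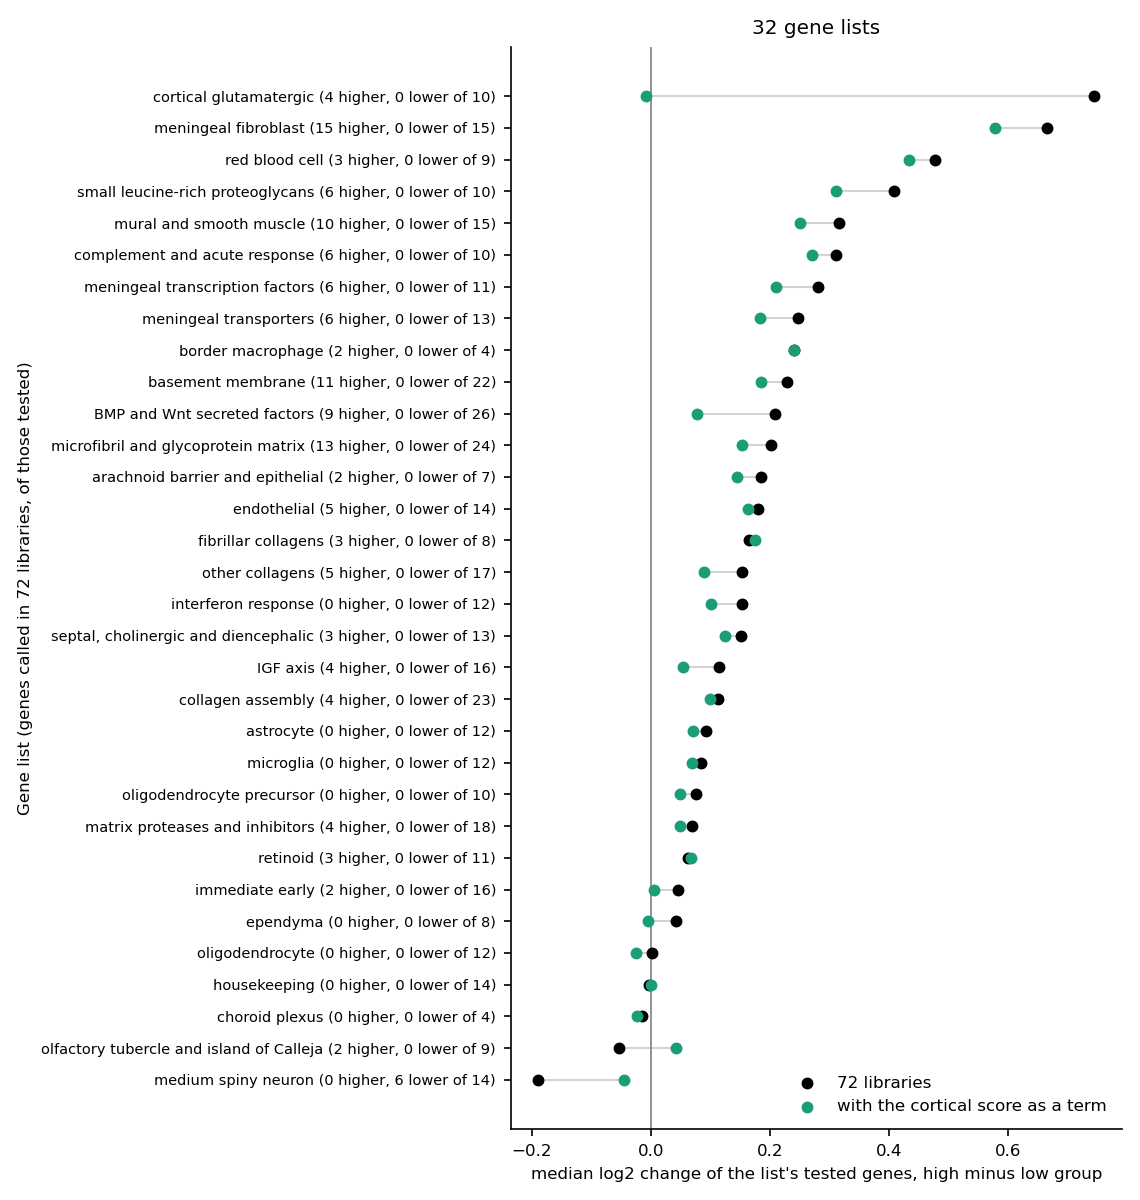
Median log2 change, high minus low group, of the tested genes of 32 lists in the 72 libraries (black) and with the cortical score as a term in the model (green). The fibroblast list lies at 0.67 and, with the term, at 0.58, while the cortical list, whose own members make the score, lies at 0.74 and at -0.01.

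Some genes of cortical glutamatergic neurons also differed between the groups. The 10 listed genes summed to 52.3 to 1603 CPM in the high group, with a median of 504, and to 46.9 to 1136 CPM in the low group, with a median of 245, and 4 of them were called. Slc30a3, the zinc transporter of glutamatergic vesicles, had 0.905, 21.1 and 96.3 CPM in the high group and 0.545, 6.39 and 43.0 CPM in the low group. The groups overlapped over most of their range, and the change was 1.20 (SE 0.30, limma adjusted p = 0.0111). Nrn1 rose by 0.85, Emx1 by 0.63 and Cux2 by 0.30. Slc17a7, the vesicular glutamate transporter of cortex, had 11.4, 337 and 1148 CPM in the high group and 7.26, 147 and 833 CPM in the low group, and Tbr1 had medians of 35.2 and 15.7 CPM. Neither passed the test, at 1.02 (SE 0.38, limma adjusted p = 0.112) and 0.86 (SE 0.31, limma adjusted p = 0.101). None of the 10 listed genes was called in numeric or in E21 libraries alone, or without the 10 libraries of highest Col1a2. With the label format as a term, in libraries with an original label, 1 was called. In the upper middle group against the lower middle group the list had a median of -0.43, with 1 of 10 genes positive.

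Striatal neuron genes were slightly lower in the high group. Of 14 listed genes of medium spiny neurons 6 fell, and none rose. The list includes Drd1, whose level decided which libraries were kept. In numeric libraries alone and in E21 libraries alone none of the 14 was called. The same held without the 10 libraries of highest Col1a2, and with the label format as a term in libraries with an original label. Prodynorphin (Pdyn) fell by 0.24 (SE 0.07, limma adjusted p = 0.0378), with 161, 385 and 522 CPM in the high group and 288, 445 and 560 CPM in the low group. Tac1, the substance P precursor, fell by 0.23, the adenosine receptor Adora2a by 0.21, the D2 receptor Drd2 by 0.21, the retinoic acid receptor Rarb by 0.20 and Arpp21 by 0.19. The list summed to 5030 to 11510 CPM in the high group and to 6650 to 11548 CPM in the low group, so the groups overlapped over most of their range.

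The 10 largest falls were small beside the rises. Apeg3, an antisense transcript of the imprinted gene Peg3, fell by 0.81 (SE 0.22, limma adjusted p = 0.0244), with 0, 0 and 5.24 CPM in the high group and 0, 0.619 and 9.64 CPM in the low group. It was the single gene that fell by at least 0.5, against 82 that rose by as much, together 0.542% of the genes. Library strand is not known, so Apeg3 and the antisense gene Atad3aos cannot be told apart from their partners. The growth factor Btc fell by 0.32, Atad3aos by 0.29, the receptor partner Ramp1 by 0.28, Tbc1d10c by 0.28, the orphan receptor Gpr6 of striatal neurons by 0.255, Ptges3l1 by 0.24, Crip3 by 0.24 and the acid phosphatase Acp5 by 0.24.

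With the mean standardised level of the 10 cortical genes of each library as a term in the model, 105 genes were called, 104 higher and 1 lower, the complexin gene Cplx3, which are 0.685%, 0.679% and 0.00652% of the genes. Without the term 580 were called, and 104 were shared, 17.9% of the 580 and 99% of the 105. Among the 15 largest rises 11 were still called. They were Ogn at 1.22, Col1a1 at 1.06, Igf2 at 1.04, Igfbp2 at 1.00, Aldh1a2 at 0.95 and Col3a1 at 0.93. Further ones were Fmod at 0.84, Serpinf1 at 0.84 and Aebp1 at 0.66, with Cpxm2 at 1.05 and Col8a2 at 0.82. Cpxm2 and Col8a2 reached the minimum mean through the high group, so they count here as descriptions only. The 4 that were lost were Slc30a3 at 0.30, the heparan sulfate sulfotransferase Ndst4 at 0.35, the phosphatase Ptpn3 at 0.20 and the Nogo receptor Rtn4r at 0.11. In the fibroblast list 13 of 15 genes were called, all but Lama1 and Crabp2, at a median of 0.58. None of the 10 largest falls and none of the 6 medium spiny neuron genes was called with the term, Pdyn lying at -0.09 and Drd2 at -0.07. With the septal and oligodendrocyte scores and the label format added, the model used only the 32 high and 34 low libraries with an original label. In that model, whose terms were chosen after the data were seen, 66 genes or 0.431% were called. Of them 10 were on the fibroblast list, at a median of 0.63 for that list. Fewer libraries and added terms cannot be told apart in these counts. The septal list holds Zic1 and Zic4, which rose and are also on the list of meningeal transcription factors. The septal term can therefore take up part of the meningeal signal, and its share in the losses was not tested. Slc30a3, Nrn1, Emx1 and Cux2 are members of the cortical score, so their values with that score are no separate measure.

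**Figure D4:**
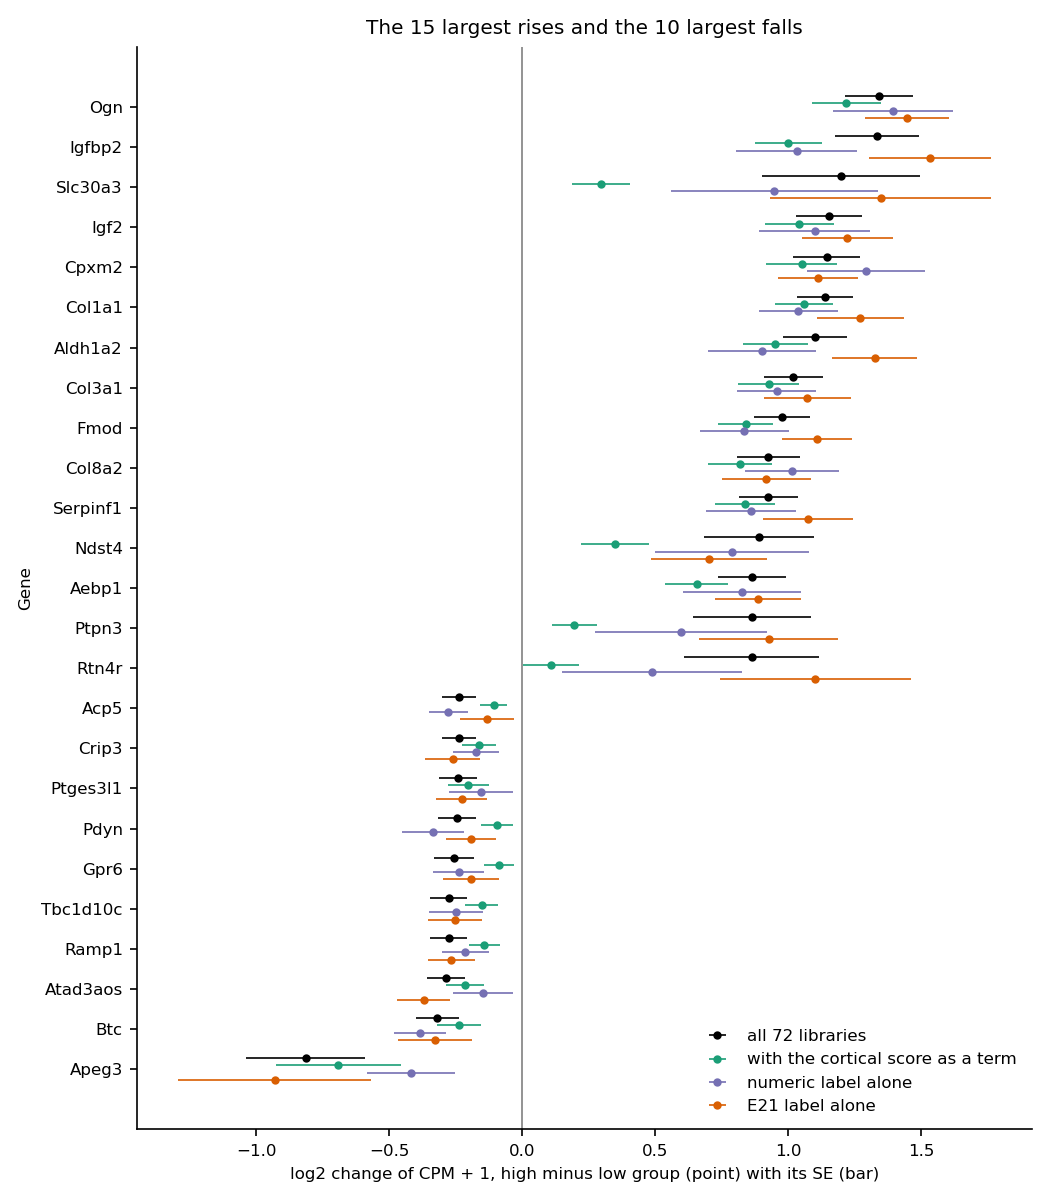
Log2 change of CPM + 1, high minus low group, with its SE for the 15 largest rises and 10 largest falls, in all 72 libraries, with the cortical score as a term and within each original label format. Ogn lies at 1.34, 1.22, 1.39 and 1.45 in these 4 settings, whereas Slc30a3 lies at 1.20, 0.30, 0.95 and 1.35 with wide SE bars.

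The label format was not evenly spread over the groups, although the difference did not pass. Of the libraries with an original label, 19 of 32 in the high group and 12 of 34 in the low group were numeric, which is 59.4% and 35.3% (odds ratio 2.68, two-sided Fisher's exact test p = 0.0834). Within each format the fibroblast list rose. Among numeric libraries alone, 19 high against 12 low, limma called 303 genes, 1.98% of those tested, and 11 of the 15 fibroblast genes, all 15 being positive at a median of 0.73. In E21 libraries alone, 13 high against 22 low, 43 genes were called, 0.281%, and again 11 of the 15, all positive at a median of 0.74.

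Ogn rose by 1.39 in numeric libraries (limma adjusted p = 0.00151) and by 1.45 in E21 libraries (limma adjusted p = 2.99e-07), Col1a1 by 1.04 and 1.27, Col3a1 by 0.96 and 1.07 and Igf2 by 1.10 and 1.22. Igfbp2 rose by 1.03 in numeric and 1.53 in E21 libraries, and Aldh1a2 by 0.90 and 1.33. A test of the difference between the formats called no gene in limma, with 558 genes, 3.64%, at an unadjusted p under 0.05. For Igfbp2 that difference was -0.50 (SE 0.33, limma unadjusted p = 0.137) and for Aldh1a2 -0.42 (SE 0.26, limma unadjusted p = 0.111), numeric minus E21. Acta2 was called in the numeric libraries at 0.81 and not in the E21 ones at 0.76 (limma adjusted p = 0.0617), and the difference between these was not called.

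Libraries between the outer groups gave no calls. In the upper middle group against the lower middle group, 38 against 37 libraries, limma called 0 of 15326 genes, 0%, and 749, 4.89%, had an unadjusted p under 0.05. There 13 of 15 fibroblast genes were positive, at a median of 0.08. Col1a1 had 5.47, 7.25 and 22.8 CPM in the upper middle group and 4.53, 6.19 and 9.09 CPM in the lower middle group, a log2 change of 0.28 (SE 0.06, limma adjusted p = 0.251). Ogn had medians of 3.83 CPM in the upper middle and 2.88 CPM in the lower middle group, at 0.27 (SE 0.08, limma adjusted p = 0.973). Without the 10 libraries of highest Col1a2, an alternative chosen after the data were seen, 82 genes, 0.535%, were called, 11 of them on the fibroblast list, and Ogn lay at 0.96, Col1a1 at 0.85, Igf2 at 0.80 and Col3a1 at 0.75.

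Library measures and sex-linked RNA bear on the whole comparison. Total expected counts averaged 27.3 ± 9.82 M (1 M is 1000000) in the high group and 24.2 ± 7.97 M in the low group (SD, n = 36 each; permutation test, adjusted p = 0.227 over 3 measures). Genes detected averaged 24265 and 23801 (permutation adjusted p = 0.21), and the share of the 50 highest genes was 10.7% and 10.8% (permutation adjusted p = 0.814). The largest share was 13.3% in the high group and 21.8% in the low group. The low library at 21.8%, with an E21 label, also had the fewest genes detected of its group, 21614. Xist, the RNA of the inactive X chromosome, was above 10 CPM in 14 of 36 high and 25 of 36 low libraries, 38.9% and 69.4% (two-sided Fisher's exact test p = 0.0174). Within the formats this was 5 of 19 against 7 of 12 in numeric libraries (exact p = 0.13) and 7 of 13 against 17 of 22 in E21 libraries (exact p = 0.258). With the Xist class as a term, chosen after the data were seen, 534 genes, 3.48%, were called, 464 of them shared with the 580 (86.9% and 80% of these lists), and all 15 fibroblast genes rose at a median of 0.71.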

How the data were processed

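Per the submitters' processing notes, reads were quantified with kallisto 0.48. The deposited table holds gene values that the authors placed on a log2 scale. From the values these are log2 of an expected count plus 1, and the authors' expected counts were recovered by raising 2 to the value and subtracting 1. For genome build, annotation, strand and extraction no label or header gives a value. The expected counts were scaled to CPM, 12 libraries under 100 CPM of Drd1 were left out, and a gene was tested where its mean over the 147 kept was 1 CPM or more. Of 38354 gene symbols, 38278 are in the RefSeq gene table.

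The comparison of log2(CPM + 1) used limma 3.58.1 in R 4.3.3 with Benjamini-Hochberg adjustment across all genes tested and a threshold of 0.05; the code was first tested on simulated data. The table does not hold recovered whole reads, 61.8% of values between 0 and 20 lying within 0.01 of a whole number, so no count test was run. Permutation tests were two-sided with 100000 resamples and used scipy 1.17.1 in Python 3.11.15, with numpy 2.4.6, pandas 2.3.3 and matplotlib 3.10.9. No pair of kept libraries was close enough to be merged, the highest Pearson r being 0.9939. Each library is a different rat identifier, and nothing in the labels says how the animals were housed or processed, so p-values measure the spread between these libraries.

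The genes named were drawn from the 15 largest rises and 10 largest falls among those called and from the marker genes. Also drawn on were up to 4 tested members of each list by smallest p, called or not. The tested members of the fibrillar collagen, proteoglycan and transporter lists completed the choice. Further genes were added with their values in view, among them Islr, Lama1, Ranbp3l, Slc17a7, Tbr1, Adora2a, Myh11, Cplx3, Slc6a20a and Col6a3. The libraries, lists and tests were chosen with earlier results of these data known. Alternatives covered the scaling, pseudocount, filter, ranking gene, size of the groups, label format, depth and scores of other cell types. The 33 libraries outside the table were not analysed here.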

Additional observations from a re-analysis of the deposited data

Results flagged for a closer look

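The 12 libraries left out for Drd1 under 100 CPM, 11 of them with a numeric label and 1 with an E21 label, were set apart before the comparison, and the genes that mark meningeal fibroblasts were read in them too. Col1a2 had a median of 85.3 CPM there, with a range of 7.97 to 209 CPM, against a median of 6.32 CPM in the 147 kept libraries. It lay above every kept library in 9 of the 12, and the other 3, at 7.97, 13.9 and 27.8 CPM, lay within the range of the kept libraries. Igf2 had a median of 392 CPM in these 12, with a range of 30.9 to 1152 CPM, against 16.2 CPM in the kept libraries, and 10 of the 12 lay above every kept library. These libraries drew attention because they hold a signal outside the comparison whose median exceeds every library compared. The source of that RNA was not tested.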

How the results depend on the processing

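Against 580 genes called in the 72 libraries, the number fell to 43 in E21 libraries alone, 66 with 3 scores and the label format as terms, 82 without the 10 libraries of highest Col1a2, 105 with the cortical score, 168 with Drd1 of at least 200 CPM, 175 with a mean of at least 10 CPM, 254 with depth as a term, 302 with the label format as a term, 303 in numeric libraries alone and 306 with 49 libraries a group. It was 1119 when ranked by Lum, 1574 by Igf2, 2560 by Col3a1, 2808 with Col1a2 as a continuous measure and 6917 with all libraries of the table. The higher share of the calls, 87.6% in the 72 libraries, was 76.2% ranked by Lum, 57.8% with Col1a2 continuous, 56.3% ranked by Col3a1, 52.8% with all libraries and 45.5% ranked by Igf2 (716 higher, 858 lower). At a change of at least 0.5 the count of 83 became 19 with a mean of at least 10 CPM, 22 without the 10 libraries, 26 with the 3 scores and format, 29 with the cortical score, 31 with a pseudocount of 5, 33 with 49 libraries a group, 36 in E21 libraries and also 36 with the higher Drd1 minimum, 49 in numeric libraries, 52 with depth, 128 with a pseudocount of 0.1, 138 ranked by Lum, 310 with 14 libraries a group and 1127 with all libraries. Slc17a7 and Tbr1, not called in the comparison, reversed to -0.0322 and -0.0583 with all libraries, -0.15 and -0.11 with the cortical score, and -0.18 and -0.13 with the 3 scores and format. The causes were not tested. Fits with the label format as a term, alone or with 3 scores, used only the 32 high and 34 low libraries with an original label. No paired analysis was possible because the labels give no replicate numbers shared between groups. Counts of Lum, with a median of 41.5 in the high group and 21 in the low group, limit how finely its change can be read.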
